A study of Mus musculus with 2 samples.

Results

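Ionotropic glutamate receptors are the ion channels through which released glutamate excites a neuron. The genes described are 10 that encode their subunits: Gria1, Gria2, Gria3 and Gria4 of the AMPA type, Grin1, Grin2a, Grin2b and Grin3a of the NMDA type, and Grik1 and Grik2 of the kainate type. They were taken by symbol, each matched 1 row of 41605 genes in both count matrices, and none was chosen for its level. Another 8 genes of the superfamily serve as context.

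AMPA receptors carry most of the fast excitatory current, and the subunit GluA2, encoded by Gria2, keeps calcium out of the channel once its transcript has been edited by the enzyme ADAR2. NMDA receptors need the GluN1 subunit, encoded by Grin1, together with GluN2 subunits. They open only when glutamate binds while the membrane is depolarised, which makes them the trigger of long-term potentiation at CA1 synapses. Kainate receptors modulate transmitter release and excitability, and are best known in the hippocampus from the mossy fibre synapse between dentate granule cells and CA3 pyramidal cells and from interneurons.

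The series holds 2 single-cell RNA libraries of the hippocampus of wild-type male C57BL/6 mice aged 10 weeks, each made from a pool of 3 animals. The series sets enzymatic digestion (30 min at 37 °C) beside mechanical dissociation at 4 °C, but no label says which library had which, so both libraries stay without a group and are not compared with each other. The labels name no altered gene and no agent given to an animal. With 1 pool per library there are no replicates, so no test was made and a difference between classes has no replicate check.

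Library 1 held 12306 barcodes and 18783691 UMIs (unique molecular identifiers, each counting 1 captured transcript), and 5989 cells were kept. Library 2 held 6448 barcodes and 29356086 UMIs, and 2075 cells were kept. The libraries shared 19 barcodes. Cells were sorted into classes by marker genes. In library 1 these were 340 dentate granule-like cells, 377 CA3 pyramidal-like cells, 551 CA1 pyramidal-like cells and 151 inhibitory neuron-like cells. A further 2944 neurons (49.2% of the kept cells) carried too few subfield markers to be placed. There were also 686 microglia-like, 283 astrocyte-like, 100 oligodendrocyte-like and 59 choroid plexus-like cells. Library 2 was mostly microglia-like (1527 cells) and held 28 neuron-like cells, so the comparison of neuron classes rests on library 1. The names come from the gate, which fixes that each marker list is highest in its own class, so the following levels only describe how far the lists lie apart. The summed inhibitory marker list stood at 4834 UMIs per 1000000 UMIs of the class (CPM) in the inhibitory class and at 37.0 to 349 CPM in the other 3 neuron classes. The dentate, CA3 and CA1 lists stood at 2786, 1791 and 3317 CPM in their own class and at no more than 219, 246 and 465 CPM in another neuron class. Clusters of cells built from variable genes gave the same class to 97.6% of the dentate, 68.7% of the CA3, 68.4% of the CA1 and 80.8% of the inhibitory cells. The clusters were named by the same marker lists, so this agreement is not an independent check of the gate. The cluster classes were also larger, with 1482 dentate, 395 CA3, 900 CA1 and 169 inhibitory cells. Many unmatched cells lay in neuron clusters given no subfield. Of the CA1 cells, 67, 64 and 32 lay in clusters whose leading genes included Cpne7, Fezf2 and Cux2, respectively. The Cpne7 cluster also held 65 CA3 cells, and 27 inhibitory cells lay in a cluster with Zic1 and Zic4 among its leading genes. The region that these cells came from was not tested.

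The calcium control of AMPA receptors turns on 1 codon in the channel's pore loop, and this stretch is shown because the balance of Gria2 against the other AMPA genes is the pattern reported first below. The capitals mark the glutamine codon that is edited to arginine in Gria2 pre-mRNA. The sequences were read 5′ to 3′ on the coding strand from GENCODE transcripts of build GRCm38.
Gria2: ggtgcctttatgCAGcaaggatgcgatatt
Gria3: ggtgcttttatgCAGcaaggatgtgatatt
Gria4: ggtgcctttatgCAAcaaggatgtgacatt
Gria1: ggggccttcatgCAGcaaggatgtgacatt
Gria2 lies on the minus strand of chromosome 3 and the stretch is in exon 11 of 16 at chr3:80706896-80706925. Gria3 is on the plus strand of the X chromosome (exon 11 of 16, chrX:41610253-41610282), Gria4 on the minus strand of chromosome 9 (exon 12 of 17, chr9:4464122-4464151) and Gria1 on the plus strand of chromosome 11 (exon 11 of 16, chr11:57243082-57243111). Of the 30 bases, 28 in Gria3, 27 in Gria4 and 26 in Gria1 are the same as in Gria2. The site is 3098 to 8102 bases before the annotated 3′ end of these transcripts, and the 3′ counts do not read it, so editing itself was not analysed here.

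The 10 genes lie on 9 chromosomes. The annotated genes are Gria1 (ENSMUSG00000020524, chr11:57011387-57330244), Gria2 (ENSMUSG00000033981, chr3:80681450-80802835), Gria3 (ENSMUSG00000001986, chrX:41400854-41678601) and Gria4 (ENSMUSG00000025892, chr9:4417896-4796234). The NMDA genes are Grin1 (ENSMUSG00000026959, chr2:25291181-25319187), Grin2a (ENSMUSG00000059003, chr16:9567898-9995560), Grin2b (ENSMUSG00000030209, chr6:135713233-136173511) and Grin3a (ENSMUSG00000039579, chr4:49661611-49845744). The kainate genes are Grik1 (ENSMUSG00000022935, chr16:87895900-88290265) and Grik2 (ENSMUSG00000056073, chr10:49094833-49788766). Most are long: 9 of the 10 span more than 100 kb, the exception being Grin1 at 28.0 kb, whereas 11.3% of the 22028 annotated protein-coding genes do. Their median span was 349 kb and that of all protein-coding genes 17.3 kb.

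The neuron classes of library 1 differed in which of the 10 genes they held and how much. Summed over the 10 genes, the level was 10369 CPM in CA1, 9183 in dentate, 7805 in CA3 and 6416 in inhibitory neurons. It was 8425 CPM in the neurons without a subfield, which held 54.3% of the 80588 UMIs of these genes in the kept cells. Microglia, used here as a comparison level because this class should lack most of these genes, stood at 733 CPM. Whether those UMIs came from free RNA in the droplets, from doublets or from the cells was not tested. CA1 had the highest level of 6 genes (Gria1, Gria2, Gria3, Grin1, Grin2a and Grin2b), inhibitory neurons that of Gria4, Grin3a and Grik1, and dentate granule cells that of Grik2. For Gria2, Grin1 and Grin2a the CA1 interval overlapped that of dentate. Over all settings tried, the dentate level of Grin2a was 0.871 to 1.19 times that of CA1, so its order changed with the setting. Intervals given with levels and ratios below are exact 95% intervals that cover counting error only.

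**Figure D1:**
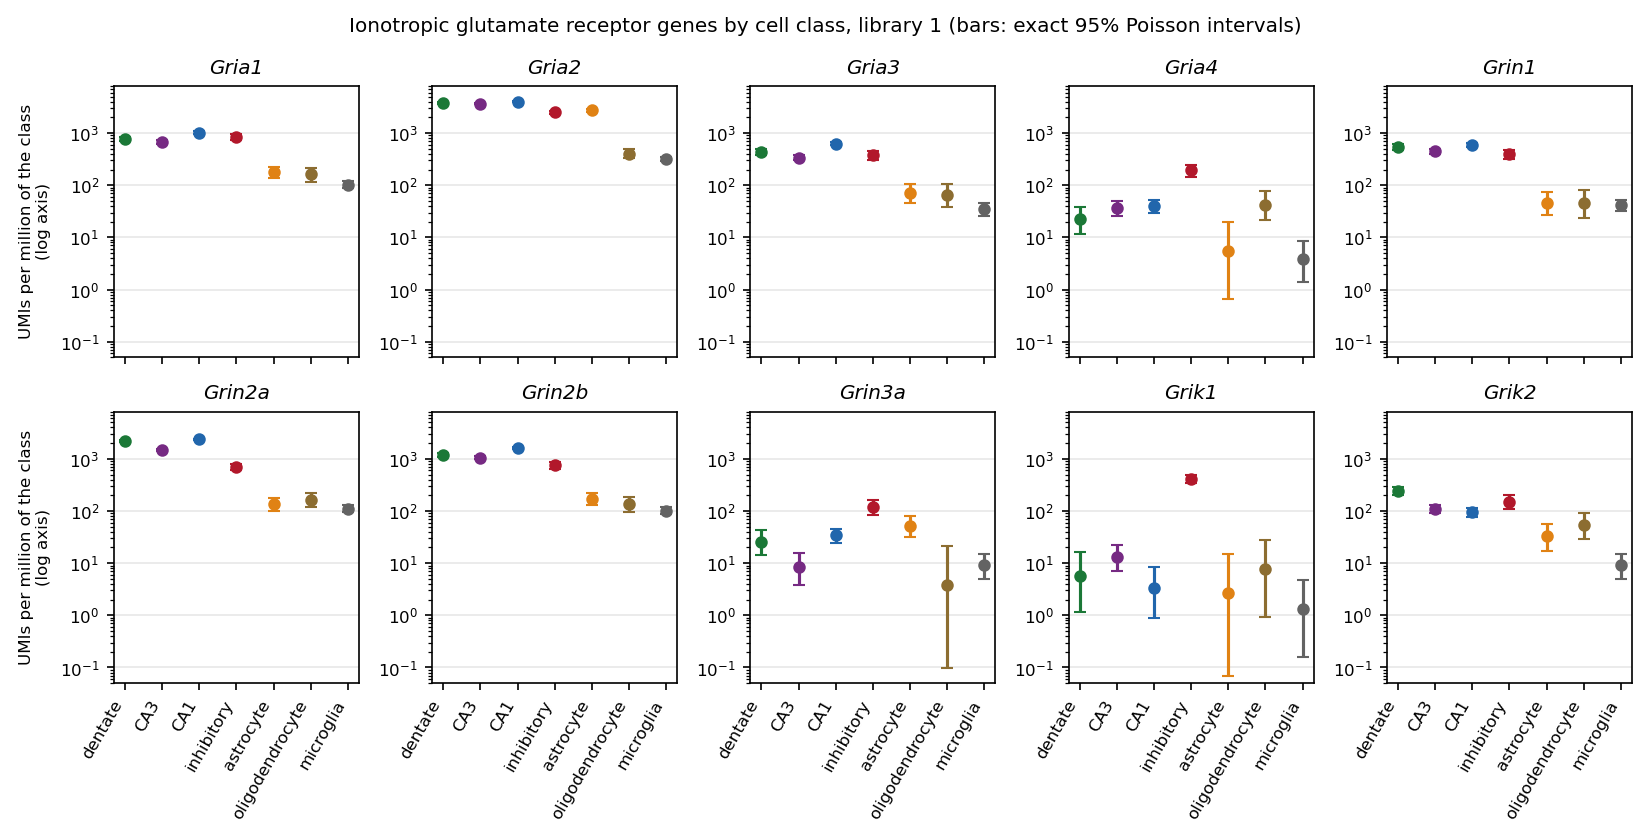
Level of each of the 10 genes (CPM, log axis, 1 panel per gene) in 7 classes of library 1, with bars for exact 95% Poisson intervals. The inhibitory class stands above the other neuron classes for Grik1 (411 CPM), Gria4 and Grin3a, and astrocytes reach the range of the neurons for Gria2 (2756 CPM) and Grin3a (51.8 CPM).

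Among the AMPA genes, Gria2 had the most UMIs in all 4 neuron classes of library 1. Its level was 3984 CPM (3872 to 4098) in CA1, 3742 (3580 to 3909) in dentate, 3669 (3555 to 3785) in CA3 and 2488 (2312 to 2674) in inhibitory neurons. The 3 excitatory classes lay close together, with neighbouring intervals overlapping, and the inhibitory class lay below all of them. The excitatory levels were 1.50 (dentate), 1.47 (CA3) and 1.60 (CA1) times the inhibitory level. A Gria2 UMI was found in 98.5% to 99.8% of the excitatory cells and in 94.7% of the inhibitory cells. With each cell thinned to 1000 UMIs, these shares were 95.2% to 97.8% and 86.1%, beside 24.1% of the microglia (41.8% unthinned). The median depth was 1492 to 2723 UMIs per cell in the 4 neuron classes and 2196 in microglia.

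Gria1, whose product GluA1 is known for its insertion at CA1 synapses during potentiation, stood at 1019 CPM (963 to 1078) in CA1. The other neuron classes had 835 (734 to 945) in inhibitory, 777 (705 to 855) in dentate and 671 (623 to 721) in CA3. CA1 was thus separate from the rest by its interval, and 1.52 times CA3 (1.39 to 1.67), whereas inhibitory and dentate neurons overlapped. Gria3, the AMPA gene on the X chromosome, was also highest in CA1, at 629 CPM (585 to 675). It had 440 (385 to 499) in dentate, 377 (310 to 454) in inhibitory and 337 (303 to 373) in CA3. Its CA1 level was 1.87 times that of CA3 (1.64 to 2.12). The inhibitory interval overlapped those of dentate and CA3. Over all settings tried, the CA3 level was 0.759 to 1.06 times the inhibitory level, so which was lowest changed with the setting.

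Gria4, which encodes the fast-gating subunit GluA4 typical of parvalbumin interneurons, was highest in the inhibitory class. Its level was 192 CPM (145 to 249, 57 UMIs) in inhibitory neurons, 39.8 (29.4 to 52.8) in CA1, 36.3 (25.8 to 49.6) in CA3 and 22.3 (11.5 to 38.9) in dentate. The 3 excitatory intervals overlapped one another, and none reached the inhibitory interval. A Gria4 UMI was seen in 33.8% of inhibitory cells and in 3.24% to 9.55% of the excitatory ones (21.9% and 2.65% to 4.72% when thinned), beside 0.875% of microglia.

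As a share of the UMIs of the 4 AMPA genes, Gria2 took 77.9% in CA3 (76.7 to 79.0), 75.1% in dentate (73.4 to 76.7), 70.2% in CA1 (69.1 to 71.3) and 63.9% in inhibitory neurons (61.1 to 66.7). Gria1 took 21.5% in inhibitory neurons and 14.2% to 18.0% in the excitatory classes. Gria4 took 4.93% (3.76 to 6.34) and 0.447% to 0.770%. The lower Gria2 share of the inhibitory neurons thus stood beside higher shares of both Gria1 and Gria4, with Gria3 at 9.69%, inside the excitatory range of 7.15% to 11.1%. UMIs were not divided by transcript length, so these are shares of captured 3′ ends and not of subunits.

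**Figure D2:**
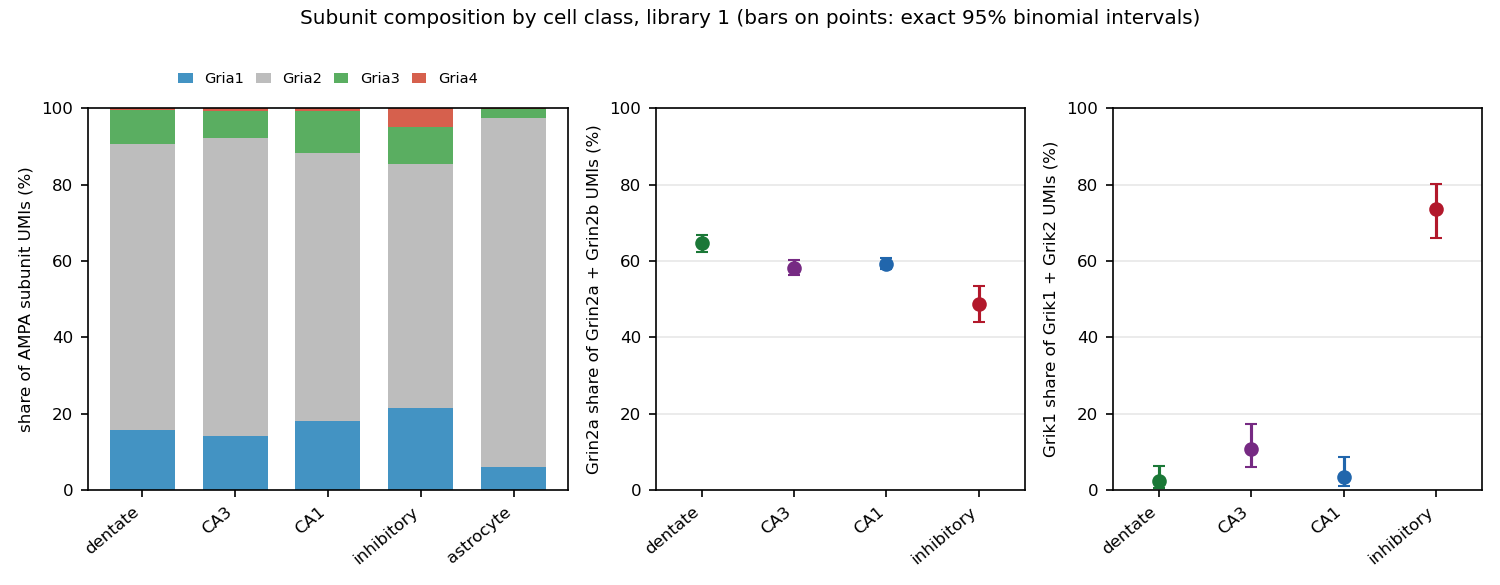
Left panel, share of the UMIs of the 4 AMPA genes held by each gene, in percent, as stacked bars for the 4 neuron classes and astrocytes of library 1. Middle panel, Grin2a as a percent of Grin2a plus Grin2b, and right panel, Grik1 as a percent of Grik1 plus Grik2, with exact 95% binomial intervals; inhibitory neurons are lowest for Grin2a (48.7%) and highest for Grik1 (73.5%).

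Among the NMDA genes, Grin1, for the subunit all NMDA receptors contain, was not 2-fold apart in any pair of classes. It stood at 593 CPM (550 to 638) in CA1, 544 (483 to 610) in dentate, 445 (406 to 486) in CA3 and 390 (323 to 468) in inhibitory neurons. CA1 and dentate overlapped, as did dentate and CA3, and CA3 and inhibitory neurons.

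Grin2a and Grin2b encode GluN2A and GluN2B, which set the channel's closing speed. GluN2A gives faster currents and gains weight as the forebrain matures. Grin2a was the more uneven of the pair: 2356 CPM (2270 to 2444) in CA1, 2185 (2062 to 2314) in dentate, 1467 (1395 to 1541) in CA3 and 710.3 (618 to 813) in inhibitory neurons. CA1 and dentate overlapped, CA3 lay below them, and inhibitory neurons lay below CA3. The CA1 level was 1.61 times that of CA3 (1.51 to 1.71) and 3.32 times that of inhibitory neurons (2.88 to 3.83).

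Grin2b stood at 1617 CPM (1546 to 1691) in CA1, 1195 (1104 to 1291) in dentate, 1051 (991 to 1114) in CA3 and 747 (652 to 852) in inhibitory neurons. CA1 was separate from the next class, dentate and CA3 overlapped, and CA1 was 2.16 times inhibitory neurons (1.88 to 2.50). Grin2a took 64.7% of the UMIs of the pair in dentate (62.4 to 66.9), 59.3% in CA1 (57.9 to 60.7), 58.3% in CA3 (56.4 to 60.1) and 48.7% in inhibitory neurons (43.9 to 53.5). The intervals of CA1 and CA3 overlapped. The dentate share was above and the inhibitory share below them, and only in inhibitory neurons did the interval include equal shares.

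Grin3a encodes GluN3A, a glycine-binding subunit best known from young neurons and from somatostatin interneurons. Its level was 118 CPM (82.1 to 164, 35 UMIs) in inhibitory neurons, 34.0 (24.4 to 46.1) in CA1, 26.0 (14.2 to 43.6) in dentate and 8.37 (3.83 to 15.9, 9 UMIs) in CA3. The CA3 level was no higher than that of microglia (9.05 CPM), so Grin3a in CA3 was not detectable above the microglial level at this depth. Inhibitory neurons stood above all 3 excitatory classes.

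Of the 10 genes, Grik1 had the widest spread over the neuron classes. It encodes the kainate subunit GluK1 and stood at 411 CPM (341 to 490, 122 UMIs) in inhibitory neurons. It stood at 13.02 (7.12 to 21.8, 14 UMIs) in CA3, 5.57 (1.15 to 16.3, 3 UMIs) in dentate and 3.32 (0.904 to 8.49, 4 UMIs) in CA1, with overlapping intervals. A Grik1 UMI was found in 41.1% of inhibitory cells (30.5% when thinned), in 0.726% to 2.92% of excitatory cells and in 0.292% of microglia. The inhibitory level was 31.5 times that of CA3 (18.1 to 59.4), 73.8 times that of dentate (24.7 to 363) and 124 times that of CA1 (47.1 to 462).

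Grik2, which encodes GluK2, was highest in dentate granule cells, the source of the mossy fibres, at 247 CPM (207 to 292, 133 UMIs). The other classes had 148 (108 to 199, 44 UMIs) in inhibitory, 109 (90.0 to 130, 117 UMIs) in CA3 and 93.7 (77.2 to 113, 113 UMIs) in CA1. The dentate interval was separate from all others, and those of inhibitory neurons and CA3, and of CA3 and CA1, overlapped. Of the UMIs of the 2 kainate genes, Grik1 took 73.5% (66.1 to 80.0) in inhibitory neurons, 10.7% (5.97 to 17.3) in CA3, 3.42% (0.939 to 8.52) in CA1 and 2.21% (0.457 to 6.31) in dentate.

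Set pair by pair, a gene was counted as apart where its level differed at least 2-fold and the classes held at least 50 of its UMIs together. This is a rule of size and not a test. Between excitatory classes, 1 of 8 genes was apart for dentate against CA3, where 14.4% of all genes so measured were apart, and 1 of 9 for dentate against CA1 (13.6% of all genes). In both it was Grik2, 2.27 times CA3 (1.76 to 2.93) and 2.63 times CA1 (2.03 to 3.41). For CA3 against CA1 it was 1 of 9 (7.95% of all genes), Grin3a, 4.06-fold higher in CA1 (1.94 to 9.50) on exactly 50 UMIs. The counts among excitatory classes were thus near the background.

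Against inhibitory neurons, 3 of 9 genes were apart from dentate (20.3% of all genes), 3 of 9 from CA3 (15.7%) and 5 of 10 from CA1 (16.9%). Grin2a was higher in each excitatory class, 3.08 times in dentate (2.66 to 3.58) and 2.07 times in CA3 (1.79 to 2.40) beside the value for CA1 given above. Gria4 was higher in inhibitory neurons, 8.62 times dentate (4.57 to 17.6), 5.29 times CA3 (3.46 to 8.16) and 4.82 times CA1 (3.23 to 7.23), as was Grik1. Against CA1, Grin2b (higher in CA1) and Grin3a (3.47-fold higher in inhibitory neurons, 2.14 to 5.58) were also apart. These 3 comparisons share the inhibitory cells. The median log2 ratio of the genes measured was 0.45 for CA1 over inhibitory neurons, with 0.04 over all genes. It was 0.48 (all genes 0.09) for dentate and -0.16 (all genes -0.03) for CA3 over inhibitory neurons.

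Raising the minimum to 2000 UMIs per cell left Gria4, Grin2a and Grik1 apart between CA1 and inhibitory neurons, a count of 3. The share of all genes at that setting is not given here. The CA3 excess of Grin2a over inhibitory neurons came to 1.82 to 2.40 over all settings tried and fell under 2-fold in some. The inhibitory excess of Grik1 stayed between 27.5-fold and 295-fold over any excitatory class.

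**Figure D3:**
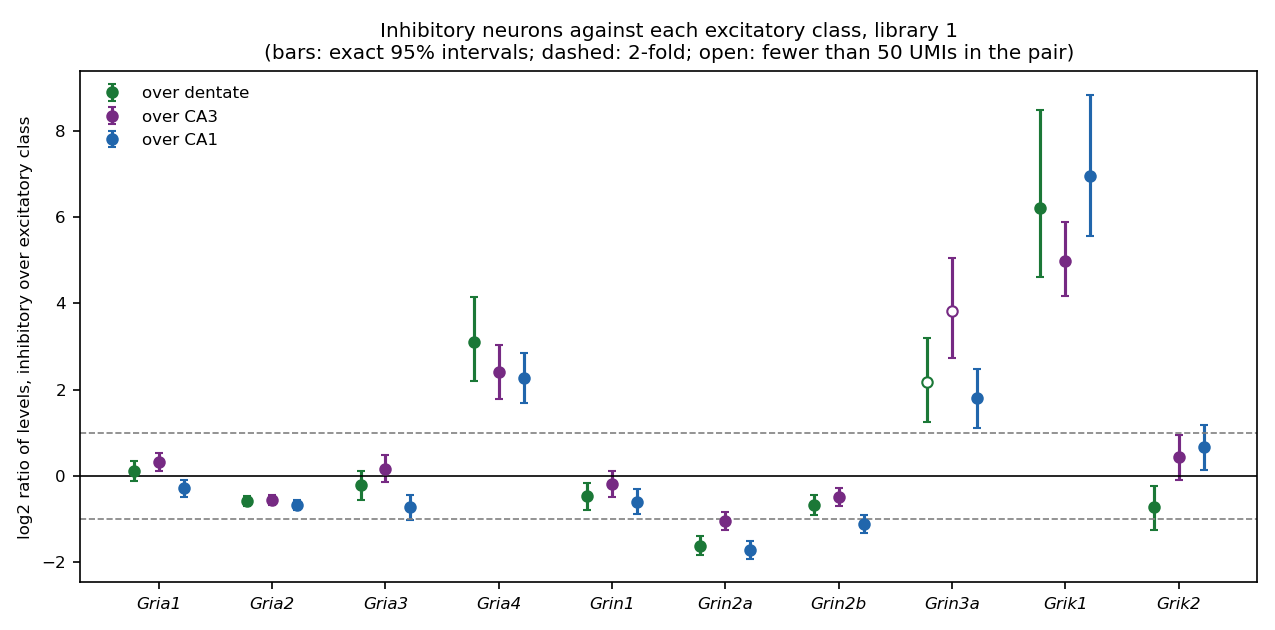
Log2 of the level in inhibitory neurons over that in dentate, CA3 and CA1 neurons of library 1, for each gene, with exact 95% intervals; dashed lines mark a 2-fold difference and open points rest on fewer than 50 UMIs. Grik1 (31.5- to 124-fold), Gria4 and Grin3a lie above the upper line, while Grin2a lies below the lower line against all 3 excitatory classes.

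Not every level in a neuron class stood above that in microglia. The interval overlapped that of microglia for Grin3a in dentate and CA3 and for Grik1 in dentate and CA1, where microglia had 9.05 CPM of Grin3a and 1.29 CPM of Grik1. For the other genes and classes the neuron interval lay higher.

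Astrocytes, which clear glutamate from the synapse, differed from the other glia by Gria2. In library 1 their Gria2 level was 2756 CPM (2588 to 2931), an interval that overlapped that of the inhibitory neurons, beside 405 CPM in oligodendrocytes and 319 CPM (291 to 348) in microglia. It was 8.65 times microglia (7.76 to 9.65), while the summed neuron marker list was 1.20 times microglia (1.12 to 1.28). A Gria2 UMI was found in 89.0% of astrocytes (83.7% when thinned to 1000 UMIs). These cells were shallow, with a median of 1138 UMIs, and 26.6% of their UMIs were of the nuclear transcript Malat1, beside 4.31% in microglia and 13.9% to 19.0% in the 4 neuron classes. The part of depth and Malat1 in these levels was not tested. In the 17 astrocytes with at least 2000 UMIs, Gria2 stood at 1709.8 CPM.

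Of 6 genes measured in astrocytes against microglia, 2 were at least 2-fold higher (15.7% of all genes were): Gria2, and Gria3 at 2.03 times (1.22 to 3.30). The other 4 stood at 1.12 times (Grin1) to 1.72 times (Gria1). Below the minimum of UMIs for that count, Grin3a was 5.73 times microglia (2.72 to 12.4, 19 and 14 UMIs) and Grik2 3.62 times (1.53 to 8.43, 12 and 14 UMIs). Gria2 took 91.6% (89.8 to 93.1) of the AMPA UMIs in astrocytes and 69.1% in microglia.

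Library 2 held 23 astrocyte-like cells, and there Gria2 was 2003 CPM (1749 to 2284, 223 UMIs) beside 13.1 CPM in microglia, a ratio of 153 (123 to 191). The neuron marker list was 4.29 times microglia (3.28 to 5.53) in those cells. Grik2 stood at 62.9 CPM (7 UMIs) there and at 0.484 CPM in microglia. Meg3 is an abundant neuronal transcript and serves as a rough measure of neuronal RNA. It is on the neuron marker list, so the gate also limits it in glial classes. It was also counted outside neurons: the 69 pericyte or smooth muscle-like cells of library 2 held 203 Meg3 UMIs, beside 668 in 1527 microglia. Those 69 cells held 1.97 Gria2 UMIs (0.532 to 5.12) for every 100 of Meg3. For every 100 Meg3 UMIs, astrocytes held 146 Gria2 UMIs (133 to 161) in library 1 and 1174 (734 to 1986) in library 2. Microglia held 18.8 (17.0 to 20.7) and 20.2 (16.7 to 24.3), and the neuron classes of library 1 held 4.50 to 31.8. Oligodendrocytes and choroid plexus cells of library 1 held 26.1 (20.9 to 32.5) and 33.7 (25.1 to 44.7), so the ratio also differed among other classes. The part of free RNA in these values was not tested.

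Among the 8 context genes, Grin2c, the NMDA subunit known from astrocytes and cerebellum, stood at 314 CPM in astrocytes of library 1 and 1.29 CPM in microglia, a ratio of 243 (65.7 to 2029) on 115 and 2 UMIs. It was at most 3.37 CPM in the 4 neuron classes. In library 2 it was 269 CPM (30 UMIs) and 0.969 CPM.

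In oligodendrocytes of library 1, 0 of 6 genes were at least 2-fold above microglia (14.6% of all genes were). Of the genes on fewer UMIs, Gria4 stood at 10.9 times (3.71 to 36.0, 11 and 6 UMIs), Grik2 at 5.97 times (2.64 to 13.5, 14 UMIs in each class) and Grin3a at 0.426 times (0.0101 to 2.80, 1 and 14 UMIs). Grik1 held 2 UMIs in each class. In library 2, 47 oligodendrocyte-like cells had 15 UMIs of Gria4, 10 of Grik1 and 8 of Grik2, where the 1527 microglia had 4, 1 and 5. Gria4 was 81.1 times microglia (25.8 to 336). The neuron marker list, which the gate caps in both classes, was level with microglia in both libraries, at 0.941 (0.863 to 1.02) and 0.906 (0.683 to 1.18) times. Precursors of oligodendrocytes express glutamate receptors, and the precursor marker list stood at 833 CPM in oligodendrocytes of library 1 (66.6 in microglia), with 7 of 8 markers detected, and at 807 CPM in library 2 (8.14 in microglia), with 3 of 8 detected. The part of precursors in these values was not tested.

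**Figure D4:**
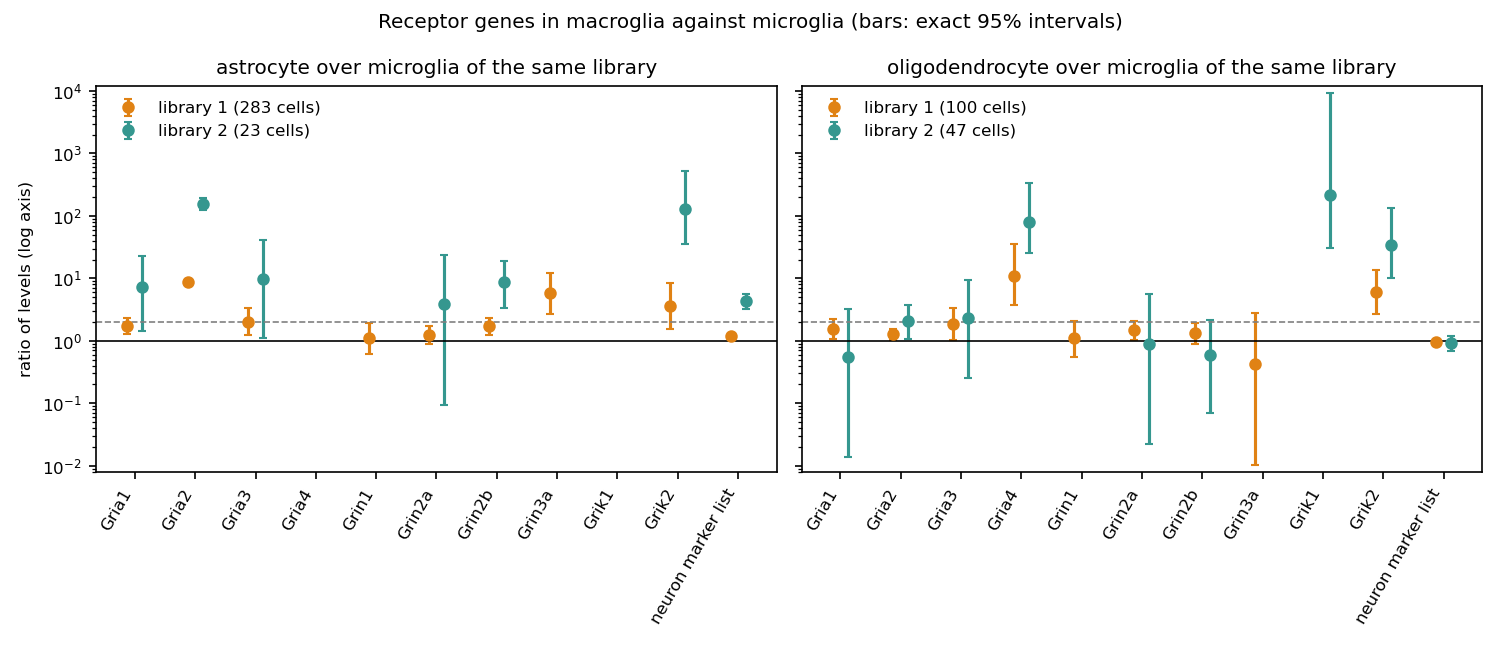
Level in astrocytes and oligodendrocytes over that in microglia of the same library (log axis), for genes with at least 10 UMIs together and for the summed neuron marker list, with exact 95% intervals. Gria2 in astrocytes lies far above the neuron marker list in both libraries (8.65 and 1.20 in library 1). The gate caps that list in each of these classes.

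Vascular and immune cells had little. In library 2 the 10 genes together stood at 12.1 CPM in endothelial cells, 45.9 CPM in pericytes or smooth muscle and 35.5 CPM in microglia. The 7 dentate-like cells of that library held 315 UMIs of the 10 genes, 172 of them Gria2 and 19 Grik2, with none of Grik1.

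Some partner genes of the receptors were also at least 2-fold apart between classes. For some lists and pairs the count was no higher than the share of all genes. Of the 8 context receptor genes, 4 were measured between CA3 and CA1, and 1 of 4 was apart (7.95% of all genes): Grik4, which encodes the high-affinity kainate subunit GluK4. It stood at 189 CPM in CA3, 87.2 in dentate, 24.9 in CA1 and 23.6 in inhibitory neurons, and CA3 was 7.59 times CA1 (5.16 to 11.5) and 2.17 times dentate (1.57 to 3.04). Grik5, for GluK5, stood at 165 to 280.0 CPM and was not 2-fold apart between excitatory classes. Grin2d, an NMDA subunit of interneurons, held 21 UMIs (70.7 CPM) in inhibitory neurons and 0, 7 and 7 UMIs in dentate, CA3 and CA1, too few for the count.

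Kainate receptors bind the auxiliary protein Neto1, whose gene stood at 93.9 CPM in CA3, 51.9 in dentate, 50.5 in inhibitory neurons and 18.2 in CA1. CA3 was 5.15 times CA1 (3.22 to 8.58), and Neto1 was the only gene of its list measured in that pair (7.95% of all genes were apart). Neto2, the other gene of that list, was not at the minimum in the excitatory pairs. Within the kainate group, Grik4 and Neto1 were thus highest in CA3, Grik2 in dentate and Grik1 in inhibitory neurons.

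AMPA receptor auxiliary subunits (12 genes), which control traffic and gating, also varied. Between dentate and CA3, 3 of 7 measured genes were apart (14.4% of all genes): Shisa9 (4.93-fold) and Cnih3 (5.98-fold) higher in dentate, and Shisa6 (2.59-fold) higher in CA3. Between CA3 and CA1 it was 4 of 7 (7.95% of all genes), with Shisa7 (2.51-fold) and Cnih3 (3.47-fold) higher in CA1 and Cacng2, which encodes stargazin, 3.14-fold higher in CA3. Between dentate and CA1, Shisa9 was 7.01-fold higher in dentate and Shisa6 2.09-fold higher in CA1, 2 of 7 (13.6% of all genes). Dentate and CA1 both had more Cnih2 than inhibitory neurons (2.01- and 2.67-fold). In these pairs 2 of 4 and 2 of 5 measured genes were apart (20.3% and 16.9% of all genes). No gene of this list was apart between CA3 and inhibitory neurons, of 4 measured (15.7% of all genes). The list's median log2 ratio was 0.69 for dentate over CA3 (all genes 0.08) and -0.59 for CA3 over CA1 (all genes -0.08).

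Among postsynaptic scaffold genes (19), 2 of 17 were apart between dentate and CA3 (14.4% of all genes), Homer1 (2.19-fold) and Homer3 (6.35-fold), both higher in CA3. Homer3 was 6.39 times and 15.8 times as high in CA3 as in CA1 and in inhibitory neurons. Of 17 genes measured between CA3 and CA1, 1 was higher in CA3 and 1 in CA1 (7.95% of all genes were apart). Of 16 between CA3 and inhibitory neurons, 1 was higher in CA3 and 2 in inhibitory neurons (15.7% of all genes). Between dentate and CA1, 3 of 16 were apart, all higher in CA1 (13.6% of all genes). Grip1, which binds the tail of GluA2, was higher in inhibitory neurons than in dentate (6.02-fold), CA3 (5.85-fold) and CA1 (5.01-fold). Between dentate and inhibitory neurons 4 of 12 were apart (20.3% of all genes), with Nsf 2.17-fold higher in dentate and Homer2 4.06-fold higher in inhibitory neurons beside Grip1. Between CA1 and inhibitory neurons 5 of 16 were apart (16.9% of all genes), with Homer1 (2.93-fold) and Dlg4 (2.51-fold), the gene of PSD-95, higher in CA1.

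Of the 3 editing enzyme genes, Adarb1, which encodes ADAR2, stood at 186 CPM in CA3, 139 in dentate, 115 in inhibitory neurons and 72.2 in CA1, with CA3 2.58 times CA1 (1.99 to 3.36). Adarb2, whose product has no known editing activity, had 690.1 CPM in inhibitory neurons and 295 in dentate, beside 10.2 in CA3 and 4.98 in CA1. It is on the inhibitory marker list but was left out of the gate.

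The genes whose levels ran most alike to each of the 10 were taken by Pearson's r of log2(CPM + 10) over the 9 classes of library 1 with at least 50 cells, among 8583 genes. These are descriptions over 9 points that share 1 library and its depth, and 5 of the 9 are neuron classes. Gria1 ran most alike to Slitrk5, Arfgef3 and Gm45182 (r = 0.995 to 0.990). For Gria3 they were Myt1l, Gm44678 and Grm5, a metabotropic glutamate receptor gene (0.997 to 0.994). Gria2, the gene also high in astrocytes, ran with AC130661.1, Gm37848 and Celsr2 (0.992 for each). Grin1 ran with Gm44798, Fcho1 and Gm38020 (0.997 to 0.996), Grin2a with Gm43316, Gm42770 and Gm44800 (0.998 to 0.995), and Grin2b with Sidt1, Gm44797 and Miat (0.996 to 0.995). The 3 genes high in inhibitory neurons had other companions. Grik1 ran with Col19a1 (0.988) and with Slc32a1 (0.973) and Reln (0.965), both on marker lists: Slc32a1, the vesicular GABA transporter gene, was used in the inhibitory gate, and Reln is on the Cajal-Retzius list, which the gate did not use. Gria4 ran with 6430548M08Rik, Dennd4c and Gm37140 (0.974 to 0.944) and Grin3a with Tm9sf4, Wdr82 and D330023K18Rik (0.956 to 0.940). Grik2 ran with Slc7a14, Ap4e1 and Dcaf1 (0.979 to 0.975).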

How the data were processed

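The deposited values are unnormalized UMI counts for each gene and barcode, made by the authors with Cell Ranger 3.0.1 on GRCm38.p5 per the submitters' processing notes. The kit was 10x 3′ version 3 per the labels. Cells with at least 1000 UMIs, 500 genes and at most 10% mitochondrial UMIs were kept. Doublets were removed per library with Scrublet in scanpy 1.11.5: 1220 cells in library 1, and in library 2, where its automatic threshold marked 0%, the 89 highest scores. Kept cells had a median of 1695 and 6433 UMIs.

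Classes were gated cell by cell on marker UMIs. Neurons needed 1% of their UMIs from the neuron list, non-neuronal classes 0.4% from their list (erythrocytes 5%) with 3 distinct markers, and a subfield 3 UMIs from 2 markers with a margin of 3 over the next list. These thresholds were set after the counts were seen, and 3 markers (Pex5l, Adarb2, Dock10) were left out of the gate. At the minimum of 3 subfield UMIs stood 176 dentate, 115 CA3, 217 CA1 and 22 inhibitory cells. The 10 genes, markers and context lists were chosen with earlier results of these data known.

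UMIs were summed per class and library and divided by all UMIs of the class (CPM). Intervals are exact at 95% (Poisson for levels, conditional binomial for ratios, Clopper-Pearson for shares; scipy 1.17.1) and cover counting error only. The ratio step was checked on simulated counts. All 10 genes are named. Of a context list, genes at least 2-fold apart were counted and up to 3 with the largest summed CPM named, with 1 item not reported here, and for likeness the 3 genes with the highest r were named among those with at least 200 UMIs. Other filters, gates, clusters (leidenalg 0.10.2) and denominators were tried as alternatives.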

Additional observations from a re-analysis of the deposited data

Results flagged for a closer look

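In library 2, 1406 barcodes with at least 1000 UMIs and 500 genes were left out for more than 10% mitochondrial UMIs. They carried the 10 genes at 272 CPM (261 to 284, 2253 UMIs), near the 271 CPM of all barcodes of that library. The 2075 kept cells, mostly microglia-like, stood at 95.4 CPM (90.7 to 100.3). None of the main comparisons uses the barcodes left out. Of these barcodes, 196 passed the neuron gate.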

How the results depend on the processing

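The 60 log2 ratios between neuron classes gave 537 values under other settings. Of these, 506 stayed inside the counting interval of the reported value, 31 moved outside it, and 17 changed sign, none of them a gene counted as apart. The count of genes apart between CA1 and inhibitory neurons was 5 and became 3 with at least 2000 UMIs per cell and 6 with clusters. For dentate and for CA3 against inhibitory neurons it was 3 and ranged from 2 to 4. Between CA3 and CA1 it was 1 and became 0 with at least 2000 UMIs, with at most 5% mitochondrial UMIs and with the stricter gate, since Grin3a had exactly the minimum of 50 UMIs. With clusters in place of the gate it was 2 between dentate and CA3 (Grin3a and Grik2). These counts show only how the rule moved with the setting, since the shares of all genes at those settings are not given here. The Grin2a share of the 2A and 2B pair in dentate was 69.9% with at least 2000 UMIs (49 cells) and 66.9% with the stricter gate (104 cells), and in CA1 it was 60.8% with clusters. Without removing doublets, 1 gene (Gria2, 6.50 times) was at least 2-fold above microglia in astrocytes and 4 (Gria2, Gria3, Grin2a and Grin2b, 2.04 to 2.30 times) in oligodendrocytes. The share of all genes was not computed for this setting, so these counts are not set against it. Over all settings the inhibitory excess of Gria4 was 3.33- to 16.0-fold over the excitatory classes, and the dentate excess of Grik2 was 2.18- to 3.03-fold over CA3 and CA1. Thinning each cell to 1000 UMIs moved 84 of 130 shares of cells. Where a value moved, the cause was not tested. No paired analysis was possible because neither library has a group. Depth limits Grik1, Gria4 and Grin3a in the excitatory classes, where they rest on 3 to 48 UMIs.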

Other observations

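Within the inhibitory class of library 1, the 30 cells with at least 3 UMIs of Sst, the somatostatin gene, had Grik1 at 688 CPM (502 to 921) and Gria3 at 627 CPM (450 to 851). The 81 cells with no UMI of Sst or Vip had 347 CPM (262 to 451) and 323 CPM (241 to 423), with intervals that did not overlap those of the Sst cells. Grin3a was 184 CPM (94.8 to 321) and 86.8 CPM (47.5 to 146) in the same cells, with overlapping intervals. In the 11 cells with at least 3 UMIs of Vip, the gene of vasoactive intestinal peptide, Grik1 was 177 CPM on 3 UMIs. All 10 genes were looked at, and between the Sst cells and those without Sst and Vip the intervals overlapped for every gene but Grik1 and Gria3. This split was chosen after the data were seen and rests on few cells of 1 pool.

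CA1 cells were also split by early genes (Arc, Npas4, Egr4, Fos, Fosb, Nr4a1, Egr3 and Nr4a2), again after the data were seen. Set side by side were 82 cells with at least 3 early-gene UMIs, not all of the same gene, and 313 with none. They had Gria2 at 4095 and 4017 CPM, Gria1 at 995 and 1052 CPM, and Grin2a at 2385 and 2357 CPM. Grik2 was 50.7 CPM (24.3 to 93.3, 10 UMIs) in the first and 118 CPM (92.8 to 147) in the second. All 10 genes were looked at in this split, and the intervals overlapped for each of them, for Grik2 between 92.8 and 93.3.

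In library 2, the 2370 barcodes under 1000 UMIs held 44.4% of all UMIs of the 10 genes in that library (3530 UMIs), at 2125 CPM, and 763 of them passed the neuron gate. The kept cells of that library held 19.1%. In library 1 the kept cells held 68.7%.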
